A study of Mus musculus with 12 samples.

Results

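Death receptors are membrane proteins of the tumour necrosis factor receptor family, and 9 genes of this system were followed in sorted mouse pro-erythroblasts (Pro-E) among the 24453 genes of the deposited table. They are the ligand Fasl, the receptors Tnfrsf21 (death receptor 6, DR6), Fas, Tnfrsf10b (the mouse TRAIL receptor) and Tnfrsf1a (the TNF receptor TNFR1), the adaptors Fadd and Tradd, the caspase-8 regulator Cflar (c-FLIP) and the initiator caspase Casp8. Tnfrsf21 was picked because its expression was higher in untreated β-thalassemic than in WT Pro-E, and the other 8 genes because they act with or next to a death receptor. The difference that picked Tnfrsf21 is therefore described without a test.

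Sequencing covered polyadenylated RNA of bone marrow Pro-E in 12 libraries, with 4 groups of 3. The groups were apoTf-treated β-thalassemic mice (apoTf thal), β-thalassemic mice given PBS (thal), apoTf-treated WT mice (apoTf WT) and WT mice given PBS (WT). Thalassemic mice were Hbb th1/th1, homozygous for a germline loss of an adult β-globin gene, so that every cell type of the animal carries it. ApoTf is human transferrin without bound iron, given into the peritoneum at 10 mg, or 400 mg/kg/day in the labels, for 20 days, with cells taken 3 days after the last injection. The labels give C57BL6 and 5 months for every library, whereas the methods describe a mixed background and younger mice. Each library pooled 2 to 3 mice, and the labels mention a phlebotomy for all libraries without making clear whether these mice were bled. Nothing states that the pools of a group were prepared separately, so p-values measure only the spread between these libraries.

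In the textbook scheme a ligand clusters its receptor, the death domains inside the cell recruit FADD or TRADD, and FADD brings procaspase-8 molecules together so that they cleave and activate each other. c-FLIP binds in the same complex and limits that activation, and active caspase-8 then cleaves further caspases or BID. In early erythroblasts of the mouse, Fas and its ligand are known as brakes on cell number, whereas DR6 is known mainly from neurons and lymphocytes.

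Tnfrsf21 lies at chr17:43016555-43089188 of GRCm38 (mm10) on the + strand. Its promoter is shown because it was the member whose expression set the groups apart. The sequence below is from RefSeq on GRCm38.p6, chr17:43016305-43016604, + strand, 250 bases before and 50 bases from the start of transcription, and capitals mark the 1 match to a GC box (GGGCGG read on the opposite strand), 23 to 18 bases before the start.
Tnfrsf21 promoter: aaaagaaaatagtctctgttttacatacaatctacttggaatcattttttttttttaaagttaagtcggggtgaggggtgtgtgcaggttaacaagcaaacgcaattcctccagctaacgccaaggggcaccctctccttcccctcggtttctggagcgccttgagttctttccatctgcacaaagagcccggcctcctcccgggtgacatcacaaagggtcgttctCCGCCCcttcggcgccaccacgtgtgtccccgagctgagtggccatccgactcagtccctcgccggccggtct
A GC box was present in 46.3% of 17333 promoters of the same length, either strand counted. The Tnfrsf21 window held no match to the STAT motif TTCNNNGAA, the GATA motif AGATAA or the NF-kB motif, which occurred in 8.13%, 9.73% and 4.73% of promoters. Promoters of 7 of the 9 members were matched, all but Tnfrsf10b and Tradd. A STAT match was present in Fas (TTCTGGGAA, 93 to 85 bases before the start) and in Tnfrsf1a (TTCCGTGAA, 244 to 236 bases before it), and a GATA match in Casp8, 227 to 222 bases before its start. A match of letters is a description and does not show that a factor binds.

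The values are FPKM, reads per kilobase of exon scaled to the library's total, so levels can be compared between genes. Totals read back from the steps that 1 read makes in FPKM were 33480000 to 51705000 reads per library. The genotype tag of every library is the opposite of its title, and libraries were grouped by title. Hbb-b1 was at 97.5 to 204 FPKM in the thal and apoTf thal libraries, against 722 to 3241 FPKM in the WT and apoTf WT libraries, which follows the titles, although loss of the gene should leave none. Erythroid genes such as Tfrc, Klf1 and Gata1 summed to 1117 to 1721 FPKM over 10 markers. Neutrophil markers summed to 1.94 to 12.03 FPKM in apoTf thal, 0.888 to 7.01 in thal, 2.79 to 50.7 in apoTf WT and 2.95 to 40.9 in WT libraries, and T and NK cell markers to 0.975 to 2.69 and B and plasma cell markers to at most 0.423 over all libraries. The neutrophil sums overlapped between all groups. The T and NK cell sum was carried mainly by Lck, at 0.823 to 2.45 FPKM. Of that list 5 genes were at 0 in every library, and Cd3d, Cd4 and Cd8a stayed at or below 0.017 FPKM. The 8 megakaryocyte markers summed to 11.3 to 15.7 FPKM in apoTf thal, 9.13 to 10.9 in thal, 9.19 to 13.4 in apoTf WT and 12.9 to 20.3 in WT libraries, carried by Gp9 and Vwf, while Pf4 and Gp6 stayed at or below 0.478 FPKM. The thal libraries were thus below those of apoTf thal and WT in this sum. The 6 stroma and endothelium markers summed to 0.271 to 0.351 FPKM in apoTf thal and 0.201 to 0.446 in thal libraries. They summed to 0.375 to 1.02 FPKM in apoTf WT and 0.607 to 1.51 in WT libraries. This sum was lower without overlap in thal than in WT and in apoTf thal than in apoTf WT. The means of Col1a1, Col1a2 and Cxcl12 were lower in both comparisons. Pecam1 went the other way, with means of 0.119 FPKM in thal and 0.085 in WT, and 0.167 in apoTf thal and 0.132 in apoTf WT. The endothelial genes Cdh5 and Kdr stayed at or below 0.011 FPKM. The 10 monocyte and macrophage markers summed to 1.45 to 2.20 FPKM in apoTf thal, 1.58 to 2.53 in thal, 1.68 to 5.01 in apoTf WT and 2.02 to 4.34 in WT libraries. Of these, Cd68 was at 1.82, 1.63 and 1.23 FPKM in thal, against 1.14, 0.758 and 0.893 FPKM in WT libraries (log2 fold change 0.53, unadjusted p = 0.00814, limma adjusted p = 0.523). All the other markers of this list went the other way, with lower means in thal than in WT libraries. Among them were Lyz2 (0.152 FPKM in thal, 0.648 in WT) and Vcam1 (0.030 in thal, 0.210 in WT). The part of these cell types in the results was not tested. WT replicate 1 stood apart, with a median Spearman rho of 0.867 with the other libraries, against 0.982 to 0.990 for the other 11, and with 31177 FPKM of Rn45s, against 1609 to 6116. Fold changes for thal against WT that moved with it are also given without it, except for Cd68 and the ligand gene App. For both of these only the value with all libraries is given. WT replicate 1 was the highest WT library for Cd68 (1.14 FPKM) and the lowest of the 12 libraries for App (0.045 FPKM). In bulk RNA, fewer cells of a type and less RNA per cell cannot be told apart.

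Tnfrsf21 was the only one of 12 death receptor and related receptor genes examined that was expressed at an appreciable level in Pro-E. It averaged 4.83 FPKM over 12 libraries, 13.2 times the highest mean among the other 11 receptors, that of Tnfrsf12a, which encodes the TWEAK receptor, at 0.366 FPKM. Against the next receptor within a group it was 11.7 times as high in apoTf thal, 20.2 times in thal, 7.98 times in apoTf WT and 5.30 times in WT Pro-E, so the thal libraries raise the ratio over all 12. No other receptor went above 0.627 FPKM in any library. In contrast, the adaptors, the regulator and the caspase beneath the receptors were all measured above 1 FPKM in at least 11 libraries, in the order Casp8, Tradd, Fadd, Cflar by mean. Thus 5 of the 9 members (Tnfrsf21, Fadd, Tradd, Cflar and Casp8) passed the filter of 1 FPKM in 3 libraries and were tested among 9650 genes.

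**Figure D1:**
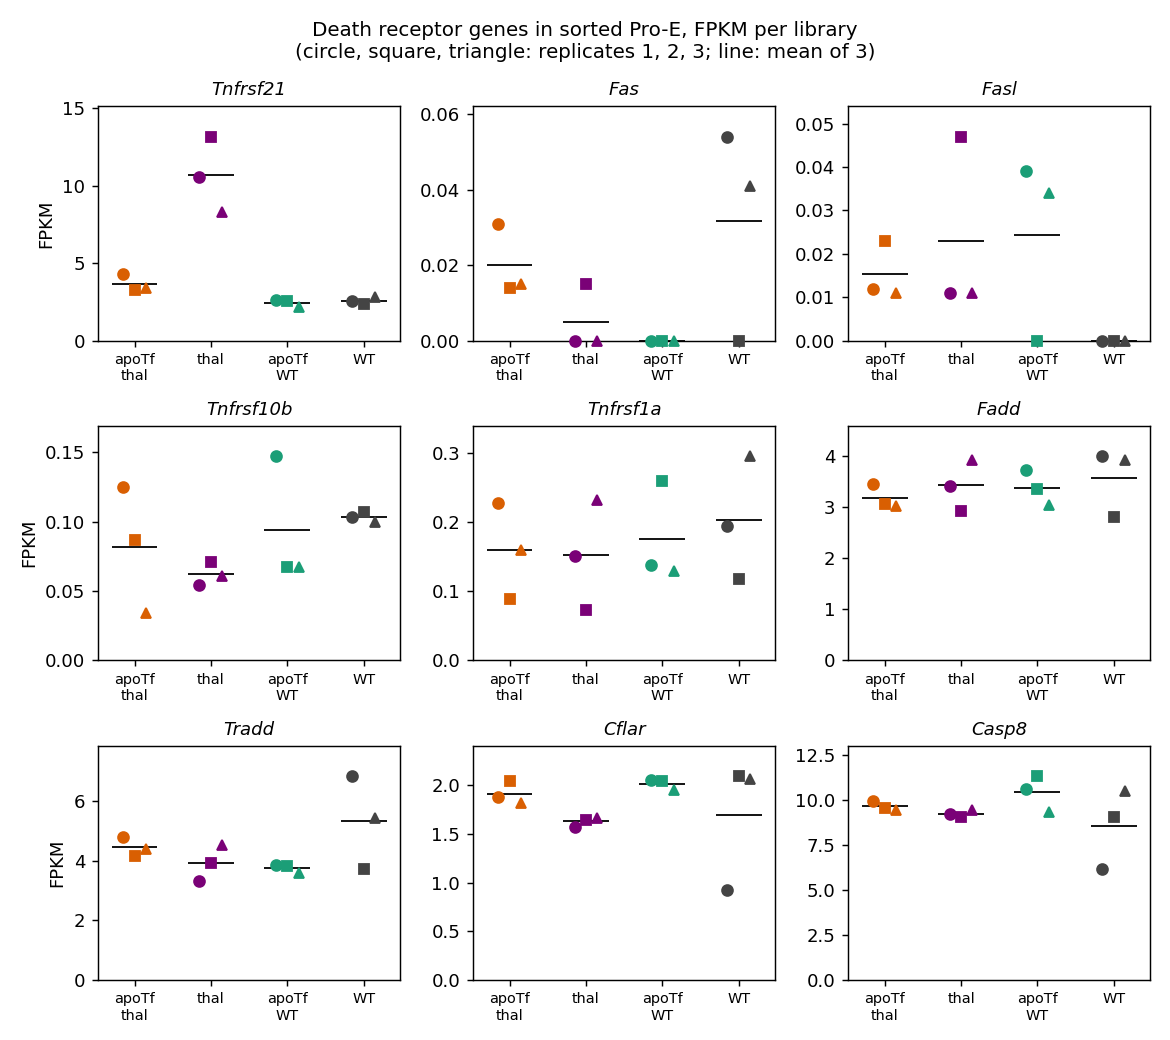
FPKM of the 9 members in each library, with each panel on its own linear axis from 0, groups from left to right apoTf thal, thal, apoTf WT and WT, symbols for replicates and a line at the mean of 3. Tnfrsf21 is high in the 3 thal libraries (8.29 to 13.2 FPKM), the Fas and Fasl panels span under 0.06 FPKM, and WT replicate 1 (circle) is lowest for Cflar and Casp8 and highest for Tradd.

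The ligand Fasl, which triggers Fas, was at the limit of detection. It had 0.012, 0.023 and 0.011 FPKM in apoTf thal, 0.011, 0.047 and 0.011 FPKM in thal and 0.039, 0 and 0.034 FPKM in apoTf WT libraries, and was at 0 in the 3 WT libraries. These values stand for about 0 to 4 reads per library and 16 in all. Thal and WT libraries do not overlap, but at 1 to 4 reads against 0 no difference was detectable at this depth. With thal higher this also held for 3.68% of the genes tested, which reach higher levels than Fasl. The share among genes as low as Fasl was not computed.

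Tnfrsf21 is a receptor with a cytoplasmic death domain. It was at 4.32, 3.24 and 3.40 FPKM in apoTf thal, 10.6, 13.2 and 8.29 FPKM in thal, 2.59, 2.54 and 2.16 FPKM in apoTf WT, and 2.58, 2.34 and 2.79 FPKM in WT libraries, from about 313 to 2114 reads. The thal libraries lay above all others, apoTf thal libraries lay above all apoTf WT and WT libraries, and apoTf WT and WT libraries overlapped. Group means were 3.65 ± 0.583 FPKM in apoTf thal, 10.7 ± 2.44 in thal, 2.43 ± 0.236 in apoTf WT and 2.57 ± 0.228 in WT Pro-E (SD, n = 3 libraries each). The ratio of means was 4.15 for thal over WT, 0.343 for apoTf thal over thal and 0.946 for apoTf WT over WT. These ratios share libraries with the choice of the gene and are descriptions.

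The comparison of apoTf thal with apoTf WT Pro-E sets side by side libraries that did not pick Tnfrsf21, and asks whether the genotypes still differed under apoTf. Tnfrsf21 was 1.504 times as high in apoTf thal by ratio of means, and the groups did not overlap. Its log2 fold change was 0.50 (SE 0.18, 95% interval 0.11 to 0.88, on the scale of log2 of FPKM plus 0.5), with an unadjusted p of 0.0156 and an adjusted p of 1.00 by limma with Benjamini-Hochberg adjustment over 9650 genes. An exact two-sided permutation test gave p = 0.1, the smallest that 3 libraries against 3 allow. The difference did not pass the test. The SE and p from limma take their spread from all 12 libraries, those that picked the gene included, whereas the permutation test uses these 6 alone. With only these 6 libraries in the limma fit the SE was 0.13, the unadjusted p 0.00452 and the adjusted p 0.401. Same-numbered libraries of these 2 groups deviated together (correlations of 0.25 to 0.51), and adding the replicate number as a block to that fit, an alternative chosen after seeing the data, gave an SE of 0.087 and an adjusted p of 0.048, with 2.21% of genes called. That was the 1 of 20 alternatives to pass the threshold, and the block in the fit of all 12 libraries left the adjusted p at 1.00. In this comparison 0.0415% of genes were called by limma, and libraries did not overlap, with apoTf thal higher, in 8.88% of genes.

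Fas, the receptor of Fasl, was nearly absent. It had 0.031, 0.014 and 0.015 FPKM in apoTf thal, 0, 0.015 and 0 FPKM in thal, 0 in all 3 apoTf WT, and 0.054, 0 and 0.041 FPKM in WT libraries. The 12 libraries together held about 11 Fas reads and no library more than 3. ApoTf thal and apoTf WT libraries do not overlap, but at 1 to 2 reads against 0 no difference was detectable at this depth. With apoTf thal higher this also held for 8.88% of the genes tested, which reach higher levels than Fas. The share among genes as low as Fas was not computed, and no ranking of the groups is drawn. Genes with close copies elsewhere read low in this table because reads with several alignments were dropped (Gapdh was at 0.356 to 0.633 FPKM). Whether this touches any member was not tested.

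Tnfrsf10b, whose product binds TRAIL in the mouse, had 0.125, 0.087 and 0.034 FPKM in apoTf thal, 0.054, 0.071 and 0.061 FPKM in thal, 0.147, 0.067 and 0.067 FPKM in apoTf WT, and 0.103, 0.107 and 0.1 FPKM in WT libraries. The 3 thal libraries lay below the 3 WT libraries, from 8 to 10 reads against 11 to 16, and overlapped those of apoTf thal. Thal lay below WT also in 3.24% of the genes tested, which reach higher levels than Tnfrsf10b. Fitted without the filter on low values, thal against WT gave a log2 fold change of −0.10 (95% interval −0.24 to 0.03, limma adjusted p = 0.612). Tnfrsf1a, the main TNF receptor, had 0.228, 0.089 and 0.160 FPKM in apoTf thal, 0.151, 0.073 and 0.232 FPKM in thal, 0.138, 0.259 and 0.129 FPKM in apoTf WT, and 0.194, 0.118 and 0.295 FPKM in WT libraries. All 4 groups overlapped for this receptor, at about 7 to 29 reads.

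Fadd, the adaptor that links FAS and TRAIL receptors to caspase-8, was at 3.46, 3.07 and 3.03 FPKM in apoTf thal, 3.43, 2.93 and 3.93 FPKM in thal, 3.74, 3.36 and 3.05 FPKM in apoTf WT, and 3.999, 2.80 and 3.93 FPKM in WT libraries. Its groups overlapped in all 4 comparisons. The log2 fold change was −0.05 for thal against WT (95% interval −0.40 to 0.31, limma adjusted p = 0.883) and −0.09 for apoTf thal against thal (−0.44 to 0.27, limma adjusted p = 1.00).

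Tradd, the adaptor of TNFR1 and also a reported partner of DR6, was at 4.79, 4.15 and 4.38 FPKM in apoTf thal, 3.31, 3.91 and 4.54 FPKM in thal, 3.85, 3.83 and 3.59 FPKM in apoTf WT, and 6.84, 3.73 and 5.43 FPKM in WT libraries. The WT libraries spread widely, with replicate 1 the highest. The apoTf thal libraries lay above the apoTf WT libraries, and the other comparisons overlapped. Tradd had a log2 fold change of −0.37 for thal against WT (95% interval −0.79 to 0.04, limma adjusted p = 0.528), the opposite sign to Tnfrsf21, −0.19 (−0.53 to 0.15) without WT replicate 1, and −0.59 (SE 0.16, limma adjusted p = 0.094) without WT replicate 2. For apoTf WT against WT it was −0.42 (−0.83 to −0.00, unadjusted p = 0.0485, limma adjusted p = 0.41). Without WT replicate 1 this value was −0.24, and without WT replicate 2 it was −0.63 with an adjusted p of 0.0516.

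Cflar encodes c-FLIP, the caspase-8 homologue without protease activity. It was at 1.88, 2.05 and 1.82 FPKM in apoTf thal, 1.58, 1.64 and 1.67 FPKM in thal, 2.05, 2.04 and 1.95 FPKM in apoTf WT, and 0.921, 2.10 and 2.06 FPKM in WT libraries. Apart from WT replicate 1, the 3 thal libraries (1.58 to 1.67 FPKM) were lower than all 8 others (1.82 to 2.10 FPKM), as for 2.62% of the genes tested. The log2 fold change of thal against WT was 0.01 (95% interval −0.44 to 0.46, limma adjusted p = 0.983) with WT replicate 1, and −0.28 (−0.54 to −0.01, adjusted p = 0.611) without it. ApoTf thal against thal, where the libraries did not overlap, gave 0.18 (−0.27 to 0.63, limma adjusted p = 1.00). Cflar thus did not pass the test in either comparison. The megakaryocyte marker sum was also lower in thal than in apoTf thal and WT libraries, and the stroma and endothelium sum lower in thal than in WT libraries, as given above, and their part in these values was not tested.

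**Figure D2:**
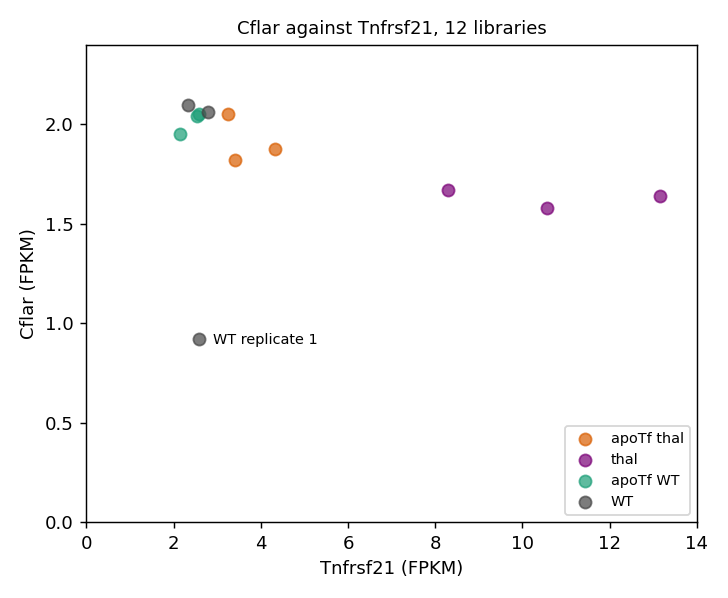
Cflar against Tnfrsf21, both in FPKM on linear axes from 0, 1 point per library, coloured by group. The 3 thal libraries lie at the right with 1.58 to 1.67 FPKM of Cflar, and WT replicate 1 lies apart from the other 11 libraries at 0.921 FPKM.

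Over the 12 libraries Cflar and Tnfrsf21 had a Pearson r of −0.23 on the log2 scale, and −0.93 over the 11 libraries without WT replicate 1. The points share 4 groups and the second value separates mainly the thal libraries from the rest, so it is a description of the groups. This pair was plotted after its values were seen. The share of all genes with an r this low over the same 11 libraries was not computed.

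Casp8, the initiator caspase, had the highest mean of the members over the 12 libraries, although Tnfrsf21 was higher in thal Pro-E (10.7 FPKM, against 9.25 FPKM for Casp8), and lies 36.3 kilobases from Cflar on chromosome 1 (chr1:58795233-58847503, with Cflar at chr1:58711311-58758884). It was at 9.95, 9.57 and 9.48 FPKM in apoTf thal, 9.23, 9.06 and 9.46 FPKM in thal, 10.6, 11.3 and 9.36 FPKM in apoTf WT, and 6.16, 9.07 and 10.5 FPKM in WT libraries. The thal libraries lay inside the range of the WT libraries and just below those of apoTf thal. Its log2 fold change was 0.13 for thal against WT (95% interval −0.24 to 0.51, limma adjusted p = 0.665), −0.07 without WT replicate 1 (−0.31 to 0.16), and 0.06 for apoTf thal against thal (−0.32 to 0.44, adjusted p = 1.00). The intervals with all libraries leave room for changes of up to 0.51 on the log2 scale.

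Of the 4 tested members other than Tnfrsf21, limma called 0 in thal against WT, where 0.259% of 9650 genes were called, and 0 of the 4 had an unadjusted p under 0.05, where 7.66% of genes did. It called 0 in apoTf thal against thal (0.0311% of genes, and 0 of the 4 at an unadjusted p under 0.05, where 1.43% of genes were), 0 in apoTf WT against WT (0.0%, with Tradd alone under 0.05 unadjusted, where 10.2% of genes were) and 0 in apoTf thal against apoTf WT (0.0415%, and 0 of the 4 under 0.05 unadjusted, where 1.41% of genes were). Counts of 0 in 4 genes do not set the members apart from shares of this size. Their median log2 fold change was −0.02 for thal against WT, beside 0.08 over all genes tested, and 0.11 for apoTf thal against thal, beside 0.03. Without WT replicate 1 the median for thal against WT was −0.13, beside −0.06 over all genes, with 0 of the 4 called and Cflar alone under 0.05 unadjusted, where 7.76% of genes were. Libraries did not overlap, with apoTf thal higher, for Cflar and Casp8 in apoTf thal against thal, as in 6.76% of genes, and for Tradd in apoTf thal against apoTf WT, as in 8.88% of genes. In thal against WT and in apoTf WT against WT none of the 4 was free of overlap, where 6.92% and 10.9% of genes were. The difference between genotypes in the apoTf effect was called for 0 of the 4 (limma, 0.0% of genes called, 473 genes or 4.9% at an unadjusted p under 0.05, among them 0 of the 4), with the largest value in Tradd, 0.59 (95% interval −0.00 to 1.18, adjusted p = 0.764).

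**Figure D3:**
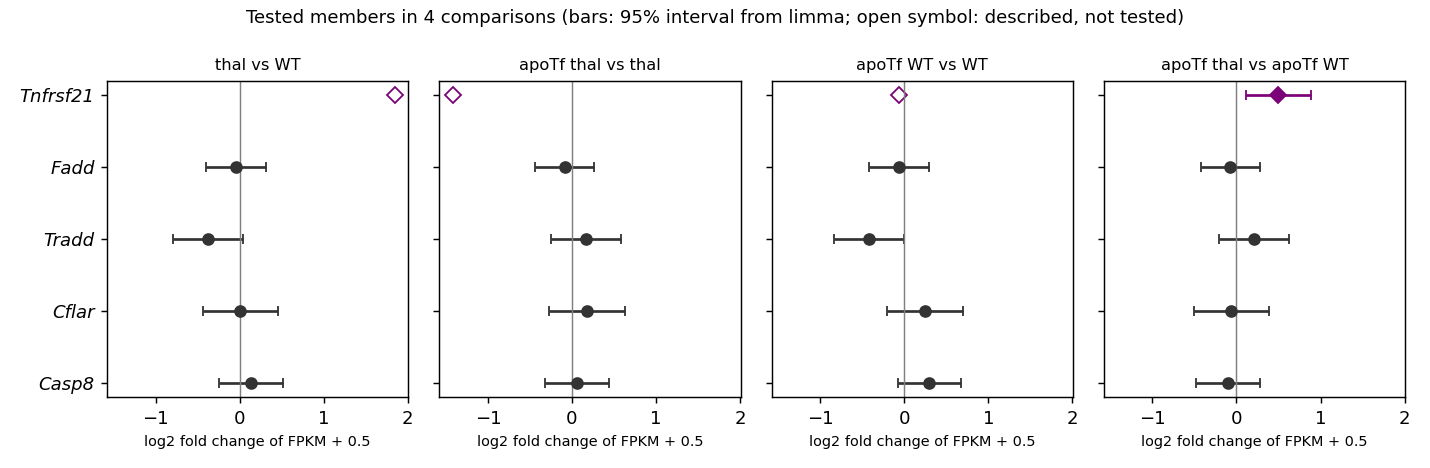
Log2 fold changes of the 5 tested members on the scale of log2 of FPKM plus 0.5 in 4 comparisons, with bars for the 95% interval from limma and an open symbol where Tnfrsf21 is described without a test. Tnfrsf21 is at 1.84 and −1.41 in the first 2 panels, whereas the other 4 members lie between −0.42 and 0.30 in all 4 panels.

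The wider pathway was followed in 73 genes of 7 lists, of which 45 were tested and 0 were called by limma in any of the 4 comparisons. Over all genes limma called 0.259% for thal against WT and 0.0311% for apoTf thal against thal. It called 0.0% for apoTf WT against WT and 0.0415% for apoTf thal against apoTf WT. Counts of 0 in 45 genes do not set the lists apart from shares of this size. For thal against WT 2 of the 45 had an unadjusted p under 0.05, beside 7.66% of all genes, and the smallest adjusted p was 0.441, and the median log2 fold change was −0.08, beside 0.08 over all genes tested. For apoTf thal against thal 0 of the 45 had an unadjusted p under 0.05, beside 1.43% of all genes, and the median was 0.03, the same as over all genes. Without WT replicate 1 the median for thal against WT was −0.08, beside −0.06 over all genes, with 0 of the 45 called, 5 at an unadjusted p under 0.05, beside 7.76% of all genes, and a smallest adjusted p of 0.105.

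All 7 other ligands and all 8 other receptors fell below the filter. Tnfsf10, which encodes TRAIL, had the highest mean of the ligands at 0.319 FPKM, and Tnfsf12, which encodes TWEAK, was at 0.057 to 0.193 FPKM. Among the receptors Ltbr, the lymphotoxin receptor, was at 0.176 to 0.607 FPKM and Tnfrsf1b, the second TNF receptor, at 0.165 to 0.328 FPKM. Tnfrsf12a was at 0.434, 0.199 and 0.2 FPKM in apoTf thal, 0.606, 0.627 and 0.354 FPKM in thal, 0.359, 0.140 and 0.221 FPKM in apoTf WT, and 0.402, 0.309 and 0.541 FPKM in WT libraries, with overlap in each of the 4 comparisons.

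App, whose product is reported as a ligand of DR6 in neurons, was low, and like Tnfrsf21 it was highest in thal Pro-E. It had 0.101, 0.092 and 0.1 FPKM in apoTf thal, 0.214, 0.381 and 0.255 FPKM in thal, 0.112, 0.082 and 0.103 FPKM in apoTf WT, and 0.045, 0.116 and 0.179 FPKM in WT libraries, from about 5 to 55 reads. The thal libraries lay above all 9 others, as for 0.829% of the 17977 genes above 0 in a library and 0.839% of the genes tested, and App was 1 of 8 ligand genes examined. Fitted without the filter on low values, the log2 fold change was 0.35 for thal against WT (95% interval 0.16 to 0.54, unadjusted p = 0.00203, limma adjusted p = 0.261) and −0.38 for apoTf thal against thal (−0.57 to −0.19, unadjusted p = 0.00114, limma adjusted p = 0.507). Neither passed the test. The value for thal against WT includes WT replicate 1, the lowest library for App, and is not given without it.

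Of the signalling complex, 16 of 19 genes were tested. Rbck1, a subunit of the linear ubiquitin ligase, was at 24.5 to 46.4 FPKM, Faf1, a FAS-associated factor, at 9.32 to 21.9 FPKM and Tab2, an adaptor of the kinase TAK1, at 10.8 to 21.4 FPKM, with WT replicate 1 at the extreme in all 3. Traf3, an adaptor of this receptor family, had the smallest p of the list for thal against WT, with a log2 fold change of 0.34 (limma adjusted p = 0.528) and −0.32 for apoTf thal against thal (limma adjusted p = 1.00). Of 9 other caspases 5 were tested. Casp2 was at 18.2 to 32.7 FPKM and Casp6 at 10.0 to 15.4 FPKM.

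All 9 genes downstream of caspase-8 were tested, among them Parp1 (44.0 to 71.9 FPKM), a caspase substrate, and Htra2 (41.8 to 62.5 FPKM) and Diablo (18.9 to 30.5 FPKM), mitochondrial proteins that oppose caspase inhibitors. Xiap, such an inhibitor, was at 2.29 FPKM in WT replicate 1 and 8.31 to 9.76 FPKM in the other 11 libraries, so its log2 fold change of 0.61 for thal against WT became 0.03 without that library (limma adjusted p = 0.528 and 0.98). Chuk, the kinase IKKα, behaved alike, at 4.56 FPKM in WT replicate 1 and 18.5 to 22.3 FPKM in the others, and at 0.70 and 0.01 on the log2 scale. Of the NF-kB genes 7 of 10 were tested, with Rela at 12.8 to 20.8 FPKM and Ikbkb at 8.80 to 12.2 FPKM. Of p53 and its targets 8 of 11 were tested, with Trp53 at 40.5 to 63.0 FPKM, Ccng1 at 9.53 to 35.9 FPKM and Bax at 18.3 to 43.5 FPKM. Sesn2, a p53 target induced by stress, was at 5.03, 5.29 and 6.05 FPKM in apoTf thal, 3.64, 4.42 and 5.59 FPKM in thal, 5.35, 5.40 and 5.38 FPKM in apoTf WT, and 8.52, 5.57 and 7.48 FPKM in WT libraries. Its log2 fold change for thal against WT was −0.61 (limma adjusted p = 0.441), and −0.48 without WT replicate 1 (adjusted p = 0.402).

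**Figure D4:**
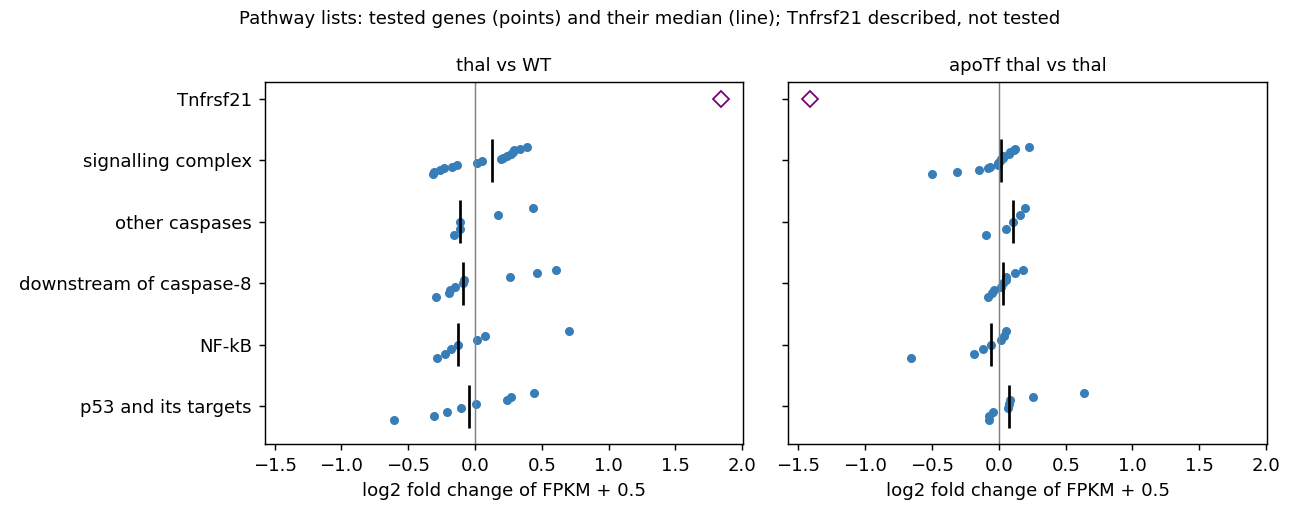
Log2 fold changes of the tested genes of 5 pathway lists (points, with a line at the median) and of Tnfrsf21 (open symbol, described without a test) for thal against WT and for apoTf thal against thal. The 45 genes lie between −0.61 and 0.70 for thal against WT (−0.84 and 0.37 without WT replicate 1) and between −0.66 and 0.64 for apoTf thal against thal, against 1.84 and −1.41 for Tnfrsf21.

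Among the genes tested, the 5 whose pattern over the 12 libraries was most like that of Tnfrsf21 were not of its pathway lists. Only 45 of the genes tested were list genes, so a top 5 without them does not set the lists apart. App, a listed ligand below the filter and so not ranked, had a Pearson r of 0.86 with Tnfrsf21 over the 12 libraries. By Pearson r on log2 of FPKM plus 0.5 the 5 nearest of 9649 genes were Podxl (0.99), Fam132b (0.98), Osm (0.98), Fry (0.97) and Osbpl3 (0.96), beside a median of 0.09 and a 95th percentile of 0.46 over all genes. The points share libraries, and the thal group sets most of each r. Podxl, a sialomucin, was at 1.56, 0.799 and 0.620 FPKM in apoTf thal, 10.8, 23.6 and 9.86 FPKM in thal, 0.286, 0.368 and 0.223 FPKM in apoTf WT, and 0.323, 0.318 and 0.403 FPKM in WT libraries. Fam132b, which encodes the hormone erythroferrone, was at 2.30, 1.72 and 2.17 FPKM in apoTf thal, 8.82, 13.3 and 4.89 FPKM in thal, 1.17, 1.70 and 1.36 FPKM in apoTf WT, and 1.33, 1.38 and 1.75 FPKM in WT libraries. In all 5 genes the thal libraries lay above the other 9, as in 0.839% of the genes tested. Choice by likeness to Tnfrsf21 favours this pattern, so it is a description. Without the thal libraries Podxl and Osbpl3 would not have passed the filter. Of these 5, Osm, which encodes the cytokine oncostatin M, and Fam132b are known targets of STAT5 in erythroid cells of the mouse. The part of STAT5 in the values of these genes or of Tnfrsf21 was not tested. Among the members, r with Tnfrsf21 was −0.02 for Fadd, −0.03 for Casp8, and −0.23 for Cflar and Tradd, at ranks 6081, 6235, 8111 and 8117 of 9649 genes over the 12 libraries. Without WT replicate 1 it was 0.08 for Fadd, −0.47 for Casp8, −0.93 for Cflar and −0.12 for Tradd.

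**Figure D5:**
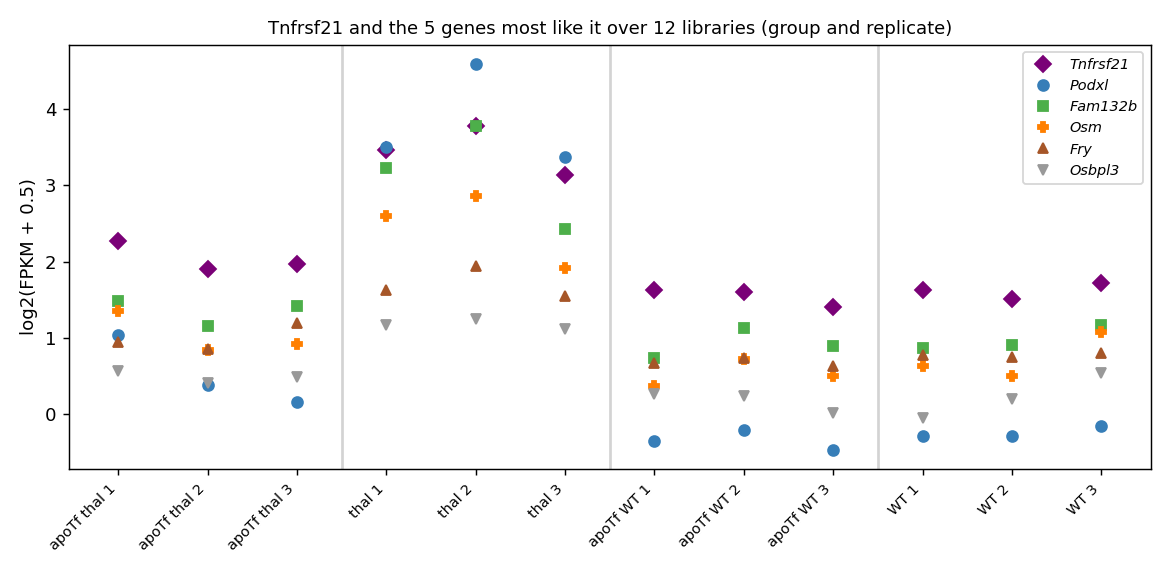
Tnfrsf21 and the 5 genes most like it, log2 of FPKM plus 0.5 in each of the 12 libraries, grouped from left to right as apoTf thal, thal, apoTf WT and WT. All 6 are highest in the 3 thal libraries, which the choice of these genes favours, and replicate 2 is the highest of these for each.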

How the data were processed

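Pro-E from 12 pools of 2 to 3 mice were sequenced as polyadenylated RNA. Alignment by the authors used STAR against mm10 and dropped reads with more than 1 alignment. HOMER then counted exon reads of either strand per gene, and the authors deposited FPKM values per library and their group averages, which were not used. The labels also list featureCounts and edgeR, and versions are not given in the sources used here. The authors also deposited log2 fold changes and p-values of apoTf-treated over untreated Pro-E, which were not used. Because reads were counted on both strands, antisense transcripts cannot be told apart from the members.

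Libraries were grouped by title. FPKM plus 0.5 was put on the log2 scale, and the 9650 genes with at least 1 FPKM in at least 3 of 12 libraries were fitted with limma 3.58.1 (trend) in R 4.3.3, with 4 group means and 1 spread per gene, two-sided, with Benjamini-Hochberg adjustment per comparison and a threshold of 0.05. The study's edgeR test needs counts, which were not analysed here. The fit was tested on simulated data. Read numbers were estimated from the steps of 1 read in FPKM: 69.2% to 76.0% of low values of short genes lay within 0.05 read of a whole number, against about 4.86% to 5.83% at other totals. They bear on counting error only.

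The members and lists were chosen with earlier results of these data known. Named were all 9 members, up to 3 genes per list with the highest mean, the gene with the smallest p for thal against WT in each list, the 5 genes most like Tnfrsf21, and Hbb-b1, and some genes that this rule names are not reported here. Trp53inp1 lies outside this rule and was named for its value without WT replicate 1. Marker genes named for cell types were chosen with earlier results of these data known.

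Alternatives were pseudocounts of 0.1 and 1, no filter, a filter of 5 FPKM, median-ratio scaling, fits of the compared groups alone, the replicate number as a block, and fits leaving out 1 library at a time. Counts of members called leave out Tnfrsf21 in the comparisons that picked it. Replicate numbers were checked by correlating the deviations of same-numbered libraries from their group means. All 3 pairs of apoTf thal with apoTf WT were over 0.1 (0.25 to 0.51), and 0 or 1 of 3 pairs were over 0.1 between other groups. Deviations within a group sum to 0, so the 3 correlations are not independent, and differently numbered pairs were not computed. Whether the numbers pair these groups is therefore not settled, and no label says what a number marks. A fit of the compared groups with the replicate number as a block was therefore added after seeing the data.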

Additional observations from a re-analysis of the deposited data

How the results depend on the processing

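The number of genes called for thal against WT was 25, and 8 with a filter of 5 FPKM, 9 with only the groups compared, 13 with the replicate block and 6 to 90 with 1 library left out (90 without WT replicate 2, 6 without thal replicate 1 or 2). For apoTf thal against thal it was 3, and 7 with no filter, 5 with only the groups compared, 1 with the block and 1 to 6 with 1 library left out. For apoTf WT against WT 0 genes became 1 with no filter and 0 to 449 with 1 library left out (449 without WT replicate 2). For apoTf thal against apoTf WT 4 became 2 to 7 with 1 library left out, and for the difference between genotypes 0 became 1 with no filter and 0 to 1 with 1 library left out. The log2 fold change of Tnfrsf21 for apoTf thal against apoTf WT stayed at 0.39 to 0.57 with 1 library left out, with adjusted p of 0.401 to 1.0 over 19 alternatives. The replicate block gave it 0.50 with an adjusted p of 1.00. The replicate block in fits of only the compared groups, added after seeing the data, gave it 0.50 with an adjusted p of 0.048, so that 1 member was called instead of 0, and called 213 genes instead of 4 in that comparison, where same-numbered libraries deviated together. In the other comparisons it called 0 genes for thal against WT, 4 for apoTf thal against thal and 1 for apoTf WT against WT.

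For Fadd, Tradd, Cflar and Casp8, 0 values passed the threshold under any alternative run, with a smallest adjusted p of 0.0516, and 19 changed sign. Cflar for thal against WT was −0.0012 with a pseudocount of 1 and −0.024 with median-ratio scaling, and Fadd for the difference between genotypes was 0.013 with that scaling. With 1 library left out, Fadd ranged over −0.19 to 0.048 for thal against WT, −0.18 to 0.0043 for apoTf thal against thal, −0.21 to 0.018 for apoTf WT against WT and −0.12 to 0.12 for the difference. Cflar ranged over −0.28 to 0.16, −0.036 to 0.40 and −0.22 to 0.22 for thal against WT, apoTf WT against WT and the difference, and Casp8 over −0.074 to 0.29 for thal against WT. The cause was not tested. Apart from apoTf thal with apoTf WT, same-numbered libraries did not all deviate together: over all 18 same-numbered pairs the correlation of deviations was −0.39 to 0.51, above 0.1 in 6. With 3 libraries a group, and at most 29 reads for 4 members, small differences in the receptors and in Fasl were not detectable at this depth.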
